A study of Mus musculus with 2 samples.

Results

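The genes described here are 48 genes of mitosis and the kinetochore, listed by symbol with no value used in the rule, although the list was drawn up with earlier results of these data known. Every probe set (a set of short probes read as 1 signal) that the platform annotation assigned to 1 gene only, that gene being on the list, was taken. This gave 109 of 34945 such probe sets and 47 of 18193 genes. Ccnb1 had no probe set named to it here and has no value. By its labels, the RNA came from bEnd3 cells grown in DMEM with 15% fetal calf serum. bEnd3 is a BALB/c mouse endothelial line from microvessels of the brain, transformed with polyoma middle T antigen. The group labelled Smad4-siRNA had received retrovirus with an siRNA against Smad4, and the Control-siRNA group retrovirus with a control siRNA. Both were selected with puromycin, and as bEnd3 cells both would carry the T antigen. Each group is 1 Affymetrix array, for which the RNA of 2 infections was pooled, and the arrays are called the Smad4-labelled and the control array below. There is thus no replicate check for any difference, and no test between the groups was made.

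Cells that enter mitosis switch on a shared set of transcripts late in the cell cycle. Cyclin-bound Cdk1 starts mitosis, condensin packs the chromosomes, kinetochores built on the centromere attach them to the spindle, and a checkpoint holds back the anaphase-promoting complex until all are attached. Transcript levels of these genes are low in resting cells, so in a bulk sample more dividing cells and more RNA per dividing cell cannot be told apart.

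The arrays went against their labels in several ways, and every value below comes from the same 2 arrays. Smad4 mRNA was not lower on the Smad4-labelled array by its brightest probe set, which read 1165 on the Smad4-labelled and 916 on the control array after quantile normalization (log2 ratio 0.35, or -0.07 from the values as deposited). Of 20 endothelial markers, 9 reached the floor (a signal of 22.8, the median of an array) on the Smad4-labelled array and 19 on the control array. Their summed signals were 1126 on the Smad4-labelled and 28714 on the control array, and Vwf was below the floor on both. Pecam1 read 1.46 on the Smad4-labelled and 1885 on the control array, and among markers measured on both arrays Nos3, Ramp2 and Cdh5 were farthest from 0, at log2 ratios of -6.68, -5.90 and -5.09. Of 12 fibroblast markers, 10 reached the floor on the Smad4-labelled and 3 on the control array, these being Fbln2, Pdgfra and S100a4 with log2 ratios of 6.30, 2.86 and 0.09. Their summed signals were 23465 on the Smad4-labelled and 1018 on the control array. Of 10 pericyte and smooth muscle markers, 5 reached the floor on the Smad4-labelled and 2 on the control array, and 4 did so on neither. Their summed signals were 3173 on the Smad4-labelled and 109 on the control array, with Acta2 at a log2 ratio of 5.61. Des went the other way, at 13.7, below the floor, on the Smad4-labelled and 36.2 on the control array. Of 7 leukocyte markers with a probe set, Cd68 and Csf1r reached the floor on both arrays and 5, among them Ptprc, on neither. Their summed signals were 94.2 on the Smad4-labelled and 873 on the control array, the latter mostly from Cd68. Cd68 read 35.2 on the Smad4-labelled and 820 on the control array, and Csf1r had a log2 ratio of -0.28. Xist read 4476 on the Smad4-labelled and 20.7 on the control array, and the Y-linked gene Eif2s3y 0.349 on the Smad4-labelled and 324 on the control array. Whether both arrays hold the same cell line was not tested, so no difference below can be read as a change within bEnd3 cells. The part of these differences in the values of the mitotic genes was not tested either. "Higher" and "lower" state what the Smad4-labelled array read relative to the control array.

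The mitotic genes were higher almost throughout. Of the 47 with a probe set, each reached the floor on the Smad4-labelled array and 42 did so on the control array. By the brightest probe set, 39 were at least 2-fold higher, none was lower to that degree and 8 lay between. Among all 11581 measured genes, 16.0% passed 2-fold upwards and 15.8% downwards. The median log2 ratio of the 47 was 1.70, against -0.14 for all measured genes, and it was 1.65 with signals below the floor set to it. Their summed signal was 14696 on the Smad4-labelled array and 5440 on the control array. At a threshold of 3-fold, 25 of the 47 were higher, beside 9.25% of all measured genes.

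**Figure D1:**
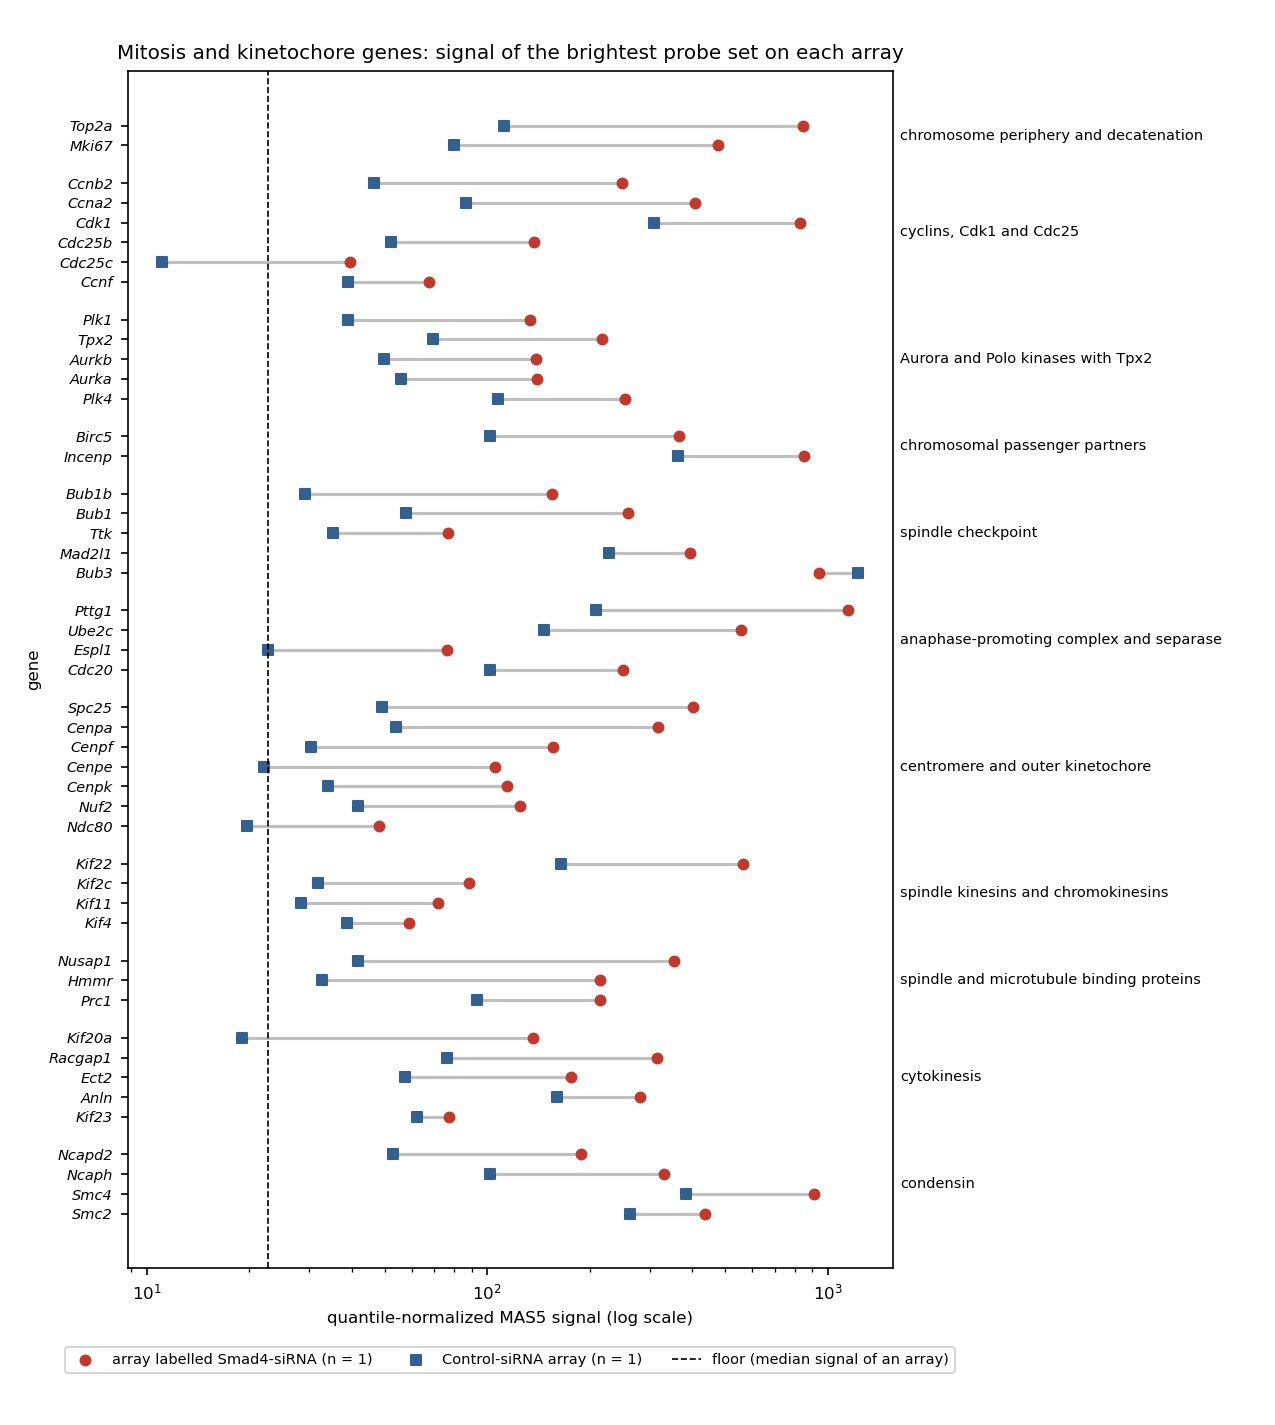
Quantile-normalized signal (log scale) of the brightest probe set of 47 mitosis and kinetochore genes on the Smad4-labelled array (red circles) and the control array (blue squares), 1 array each, by role, with the floor of 22.8 as a dashed line. The red circle lies to the right of the blue square for every gene but Bub3.

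Promoter sequences are shown because most of these genes share known cell cycle elements near their start, a feature on which their choice did not rest. The cell cycle genes homology region (CHR, TTTGAA) is bound by the MuvB complexes that repress such genes in resting cells and activate them before mitosis, and CCAAT boxes are bound by NF-Y, which acts with them. RefSeq windows (250 bases before to 50 after a transcript start, GRCm38.p6) were found for 41 of the 48 genes, 46 windows in all. No window was used for Ccna2, Cdc25c, Aurkb, Tpx2, Incenp, Kif20a and Smc4. Each stretch below runs from 170 bases before the start to 30 after it, 5′ to 3′ along the gene, with TTTGAA and CCAAT, on either strand (reverse: TTCAAA and ATTGG), in capitals. Shown are the 3 genes with TTTGAA that were farthest above 0 on the log2 scale, Nusap1, the farthest without it, and the 2 nearest to 0, among those measured on both arrays. In 5 of the 46 windows the transcript start used lay more than 500 bases inside the annotated gene, in Pttg1 by 1482 bases, so the stretch of Pttg1, the next without the motif, is not shown.
Spc25, chr2:69206184-69206383, minus strand: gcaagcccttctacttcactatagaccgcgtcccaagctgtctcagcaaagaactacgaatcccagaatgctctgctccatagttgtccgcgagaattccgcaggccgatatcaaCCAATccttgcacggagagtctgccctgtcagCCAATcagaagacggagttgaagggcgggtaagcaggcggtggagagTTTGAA
Top2a, chr11:99024160-99024359, minus strand: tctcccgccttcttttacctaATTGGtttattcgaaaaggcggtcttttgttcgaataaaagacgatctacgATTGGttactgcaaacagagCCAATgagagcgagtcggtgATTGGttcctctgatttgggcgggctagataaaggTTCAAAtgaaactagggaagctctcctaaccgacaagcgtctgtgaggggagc
Hmmr, chr11:40733408-40733607, minus strand: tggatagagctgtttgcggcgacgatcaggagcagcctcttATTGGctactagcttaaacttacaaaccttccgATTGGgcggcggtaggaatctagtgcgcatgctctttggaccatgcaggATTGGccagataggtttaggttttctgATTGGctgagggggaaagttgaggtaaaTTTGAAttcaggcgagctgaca
Nusap1, chr2:119618128-119618327, plus strand: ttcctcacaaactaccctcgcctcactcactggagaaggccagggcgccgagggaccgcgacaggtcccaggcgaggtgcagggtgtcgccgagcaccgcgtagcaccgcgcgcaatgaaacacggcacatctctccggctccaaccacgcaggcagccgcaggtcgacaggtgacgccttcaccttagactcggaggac
Kif23, chr9:61946770-61946969, minus strand: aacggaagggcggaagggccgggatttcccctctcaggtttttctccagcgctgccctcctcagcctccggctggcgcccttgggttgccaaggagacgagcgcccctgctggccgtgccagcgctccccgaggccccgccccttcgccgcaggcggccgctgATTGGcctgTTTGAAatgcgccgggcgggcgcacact
Bub3, chr7:131560200-131560399, plus strand: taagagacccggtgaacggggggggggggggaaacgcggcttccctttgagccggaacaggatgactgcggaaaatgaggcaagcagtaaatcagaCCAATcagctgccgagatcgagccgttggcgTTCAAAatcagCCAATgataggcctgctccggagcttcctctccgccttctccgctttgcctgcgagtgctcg
In Spc25, TTTGAA lay 25 to 30 bases into the transcript and CCAAT ended 51 and 19 bases before its start. In Top2a, TTCAAA covered bases -23 to -18, with 4 CCAAT boxes before it in the stretch shown, and in Hmmr TTTGAA covered bases 9 to 14, also with 4 before it. The window of Nusap1, which was 8.45-fold higher, held neither motif. The windows of Kif23 and Bub3, whose log2 ratios were 0.31 and -0.38, held both. Bub3 has 2 windows, of which the upstream one is shown.

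The motifs were common among the mitotic genes. TTTGAA was present in 32 of 46 windows (69.6%), against 17.9% of all 32851 windows and 11.9% of those of measured genes. CCAAT was present in 36 of 46 (78.3%), against 37.4% both of all windows and of those of measured genes. The motifs occurred together in 29 of 46 (63.0%), against 6.95% of all and 4.62% of those of measured genes. The E2F site TTCCCGC occurred in 2 of 46 windows (4.35%, against 4.60% of all and 8.16% of those of measured genes) and the variant TTGGCGC in 7 (15.2%, against 2.45% and 4.25%). TTTGAA also lay close to the start, where a site within overlapping windows of a gene, as in Bub3, counts in each window. Of its 42 matches, 18 (42.9%) fell in bases 1 to 50 and 11 (26.2%) in bases -50 to -1. Of the 6737 matches in all windows, 11.2% and 14.1% did. Among 29 measured genes with TTTGAA, 23 were at least 2-fold higher with a median log2 ratio of 1.62, and among 11 without it, 10 were, with a median of 1.75.

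**Figure D2:**
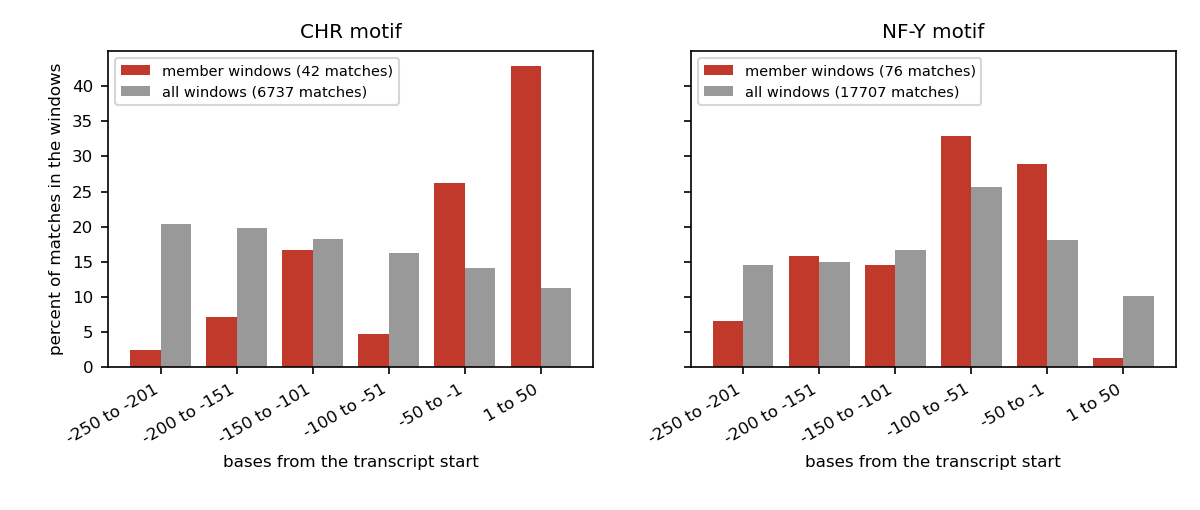
Position of CHR (left) and NF-Y (right) motif matches in bins of 50 bases from the transcript start, as a percent of all matches, in the 46 windows of mitosis and kinetochore genes (red) and all 32851 windows (grey). CHR matches of the mitotic genes are most frequent from base 1 to 50 (42.9%). Their NF-Y matches are most frequent from -100 to -51 (32.9%), as are those in all windows (25.6%).

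Both chromosome markers of dividing cells were among the larger differences. Top2a, the topoisomerase that untangles sister chromatids, read 845 on the Smad4-labelled and 112 on the control array, a 7.53-fold difference. Its other probe set measured on both arrays had a lower log2 ratio, 1.84 in place of 2.91. Mki67, which coats mitotic chromosomes and is the usual proliferation marker, had 475 on the Smad4-labelled and 80.1 on the control array, 5.93-fold higher by its only probe set.

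The genes that drive entry into mitosis were higher to different degrees. Ccnb2, a mitotic cyclin, read 249 on the Smad4-labelled and 46.4 on the control array, 5.37-fold higher. Ccna2, the cyclin of S phase and early mitosis, had 408 on the Smad4-labelled and 86.4 on the control array, and its pair of probe sets gave 2.24 and 2.06 on the log2 scale. Cdk1, the kinase that both cyclins activate, had 830 on the Smad4-labelled and 308 on the control array and was 2.69-fold higher. The Cdc25 phosphatases remove inhibitory phosphate from Cdk1. Cdc25b had 137 on the Smad4-labelled and 52.4 on the control array, 2.62-fold higher, whereas Cdc25c had 39.5 on the Smad4-labelled and 11.1 on the control array, the control value below the floor, and was at least 1.73-fold higher. Ccnf, the F-box cyclin, had 67.3 on the Smad4-labelled and 39.0 on the control array, 1.73-fold higher. By these folds Cdk1 differed less than Ccna2 and Ccnb2, which was not tested.

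The Aurora kinases Aurka and Aurkb, the Polo kinases Plk1 and Plk4 and the activator Tpx2 were at least 2-fold higher, with log2 ratios from 1.24 to 1.77, whereas the Polo kinases Plk2 and Plk3, which are not among the 48, were lower. Plk1, the Polo kinase of mitosis, read 134 on the Smad4-labelled and 39.1 on the control array (3.42-fold). Tpx2, which activates Aurora A on the spindle, had 217 on the Smad4-labelled and 69.4 on the control array (3.13-fold). Its probe sets disagreed. Of the others, 1 was at least 2.62-fold higher, 1 had a log2 ratio of 0.28 and another reached the floor only on the control array. The median over its probe sets gave 0.71, under 2-fold. Aurkb, the kinase of the chromosomal passenger complex, had 140 on the Smad4-labelled and 49.7 on the control array (2.80-fold), with 1.49 and 1.46 in its probe sets. Aurka, the centrosome kinase, had 140 on the Smad4-labelled and 55.8 on the control array (2.51-fold), and Plk4, which controls centriole copying, 254 on the Smad4-labelled and 107 on the control array (2.37-fold). Of the partners of Aurkb, Birc5 (survivin) had 366 on the Smad4-labelled and 102 on the control array (3.58-fold) and Incenp 852 on the Smad4-labelled and 364 on the control array (2.34-fold, and 1.82-fold as deposited), with log2 ratios from 0.31 to 1.23 in 3 probe sets of Incenp.

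The spindle checkpoint was uneven, and it held the only gene that was lower. The kinase Bub1 read 259 on the Smad4-labelled and 57.7 on the control array (4.50-fold), and Bub1b (BubR1) 155 on the Smad4-labelled and 29.2 on the control array (5.31-fold). Ttk (Mps1), the kinase that starts checkpoint signalling, had 76.9 on the Smad4-labelled and 35.2 on the control array (2.18-fold). Mad2l1 (Mad2), which binds and blocks Cdc20, had 395 on the Smad4-labelled and 228 on the control array (1.73-fold). Bub3, the partner that places Bub1 and Bub1b at kinetochores, had 943 on the Smad4-labelled and 1225 on the control array, a log2 ratio of -0.38. That value is within the spread between probe sets of a gene (pooled SD 0.47 over 4546 genes). The 3 probe sets of Bub3 measured on both arrays averaged -0.61 ± 0.27 (SD between probe sets) and all lay below 0.

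Downstream of the checkpoint, all 4 genes of anaphase onset were higher. Pttg1 (securin), the inhibitor of separase, read 1144 on the Smad4-labelled and 209 on the control array (5.46-fold), with 2.31 ± 0.19 over 2 probe sets on the log2 scale. Ube2c, the ubiquitin-conjugating enzyme of the anaphase-promoting complex, had 555 on the Smad4-labelled and 147 on the control array (3.78-fold). Espl1 (separase), the protease that cuts cohesin, had 76.2 on the Smad4-labelled and 22.8 on the control array, the control value just under the floor, and was at least 3.35-fold higher. The activator Cdc20 had 250 on the Smad4-labelled and 102 on the control array (2.45-fold), but its other probe set measured on both arrays had a log2 ratio of 0.27. Most other genes of the complex lay within 2-fold. Of 16 listed, which are its subunits with the coactivator Fzr1 and the ubiquitin-conjugating enzyme Ube2s, none passed 2-fold upwards, 2 passed it downwards (Anapc16 and Anapc15, at log2 ratios of -1.16 and -1.03) and 14 lay between, Cdc16 the farthest of them at 0.98. Their median was near 0 (-0.36 as deposited).

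Centromere and outer kinetochore genes were all at least 2-fold higher. Spc25, a subunit of the NDC80 complex that grips microtubules, read 403 on the Smad4-labelled and 49.0 on the control array, 8.23-fold higher. Its other probe set reached the floor only on the Smad4-labelled array and was at least 1.72-fold higher, and the median over both gave a log2 ratio of 2.10. Its partners were less so: Nuf2 had 125 on the Smad4-labelled and 41.7 on the control array (2.99-fold), and Ndc80 had 48.3 on the Smad4-labelled and 19.7 on the control array and was at least 2.12-fold higher. Cenpa, the histone variant that marks the centromere, had 317 on the Smad4-labelled and 54.1 on the control array (5.86-fold). The coiled-coil protein Cenpf had 156 on the Smad4-labelled and 30.3 on the control array (5.14-fold), and Cenpk, of the inner kinetochore, 114 on the Smad4-labelled and 34.0 on the control array (3.36-fold). Cenpe, a kinetochore motor, had 106 on the Smad4-labelled and 22.1 on the control array, the control value below the floor, and was at least 4.63-fold higher.

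Other kinetochore and centromere genes, from a list of 40, differed less. Of 37 measured, 9 passed 2-fold upwards, 1 downwards (Mad1l1, at least 4.14-fold lower) and 27 lay between, with a median log2 ratio of 0.27. Among those measured on both arrays, Cenpm (3.60-fold), the cohesin protector Sgo1 (3.51-fold) and Zwilch (3.09-fold) were farthest from 0. Genes of other mitotic regulators, spindle and cytokinesis proteins lay in between, with 20 higher, 2 lower and 20 between of 42 measured, and a median of 0.90. Psrc1 was 7.96-fold, Cdca3 5.16-fold and the Aurora A activator Bora 4.88-fold higher. The 2 lower ones were the stress-linked Polo kinases Plk3 (4.36-fold) and Plk2 (2.54-fold).

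Spindle genes included the largest fold among the 42 genes measured on both arrays. Nusap1, which binds spindle microtubules around chromosomes, read 353 on the Smad4-labelled and 41.8 on the control array, 8.45-fold higher. Hmmr, a spindle and hyaluronan-binding protein, had 215 on the Smad4-labelled and 32.8 on the control array (6.55-fold), with 2.37 ± 0.40 over 3 probe sets on the log2 scale. Prc1, which bundles midzone microtubules, had 215 on the Smad4-labelled and 93.7 on the control array (2.29-fold). Among the motors, the chromokinesin Kif22 had 564 on the Smad4-labelled and 165 on the control array (3.42-fold), the depolymerase Kif2c 88.4 on the Smad4-labelled and 31.8 on the control array (2.78-fold), and Kif11 (Eg5), which pushes spindle poles apart, 71.6 on the Smad4-labelled and 28.4 on the control array (2.52-fold). The chromokinesin Kif4, on the X chromosome, had 58.8 on the Smad4-labelled and 38.9 on the control array (1.51-fold). The probe sets of Kif2c differed, at 1.48 and 0.44 on the log2 scale. Another, which reached the floor only on the Smad4-labelled array, was at least 2.15-fold higher.

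Genes of cytokinesis ranged widely. Kif20a, a motor of the midzone, read 136 on the Smad4-labelled and 19.1, below the floor, on the control array, and was at least 5.98-fold higher. Racgap1 and Kif23 form the centralspindlin complex. Racgap1 had 315 on the Smad4-labelled and 76.1 on the control array (4.14-fold), but Kif23 had 77.5 on the Smad4-labelled and 62.3 on the control array, a log2 ratio of 0.31 that is within the spread between probe sets of a gene (pooled SD 0.47 over 4546 genes). Ect2, the exchange factor that activates RhoA at the furrow, had 176 on the Smad4-labelled and 57.2 on the control array (3.08-fold), and the scaffold Anln 282 on the Smad4-labelled and 161 on the control array (1.75-fold). Of the condensin genes, the condensin I subunits Ncapd2 (188 on the Smad4-labelled and 53.1 on the control array) and Ncaph (332 on the Smad4-labelled and 102 on the control array) were 3.55-fold and 3.25-fold higher. The core ATPase Smc4 had 912 on the Smad4-labelled and 384 on the control array (2.38-fold, and 1.82-fold as deposited), and its partner Smc2 436 on the Smad4-labelled and 263 on the control array (1.66-fold), with 0.65 ± 0.07 over 3 probe sets.

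**Figure D3:**
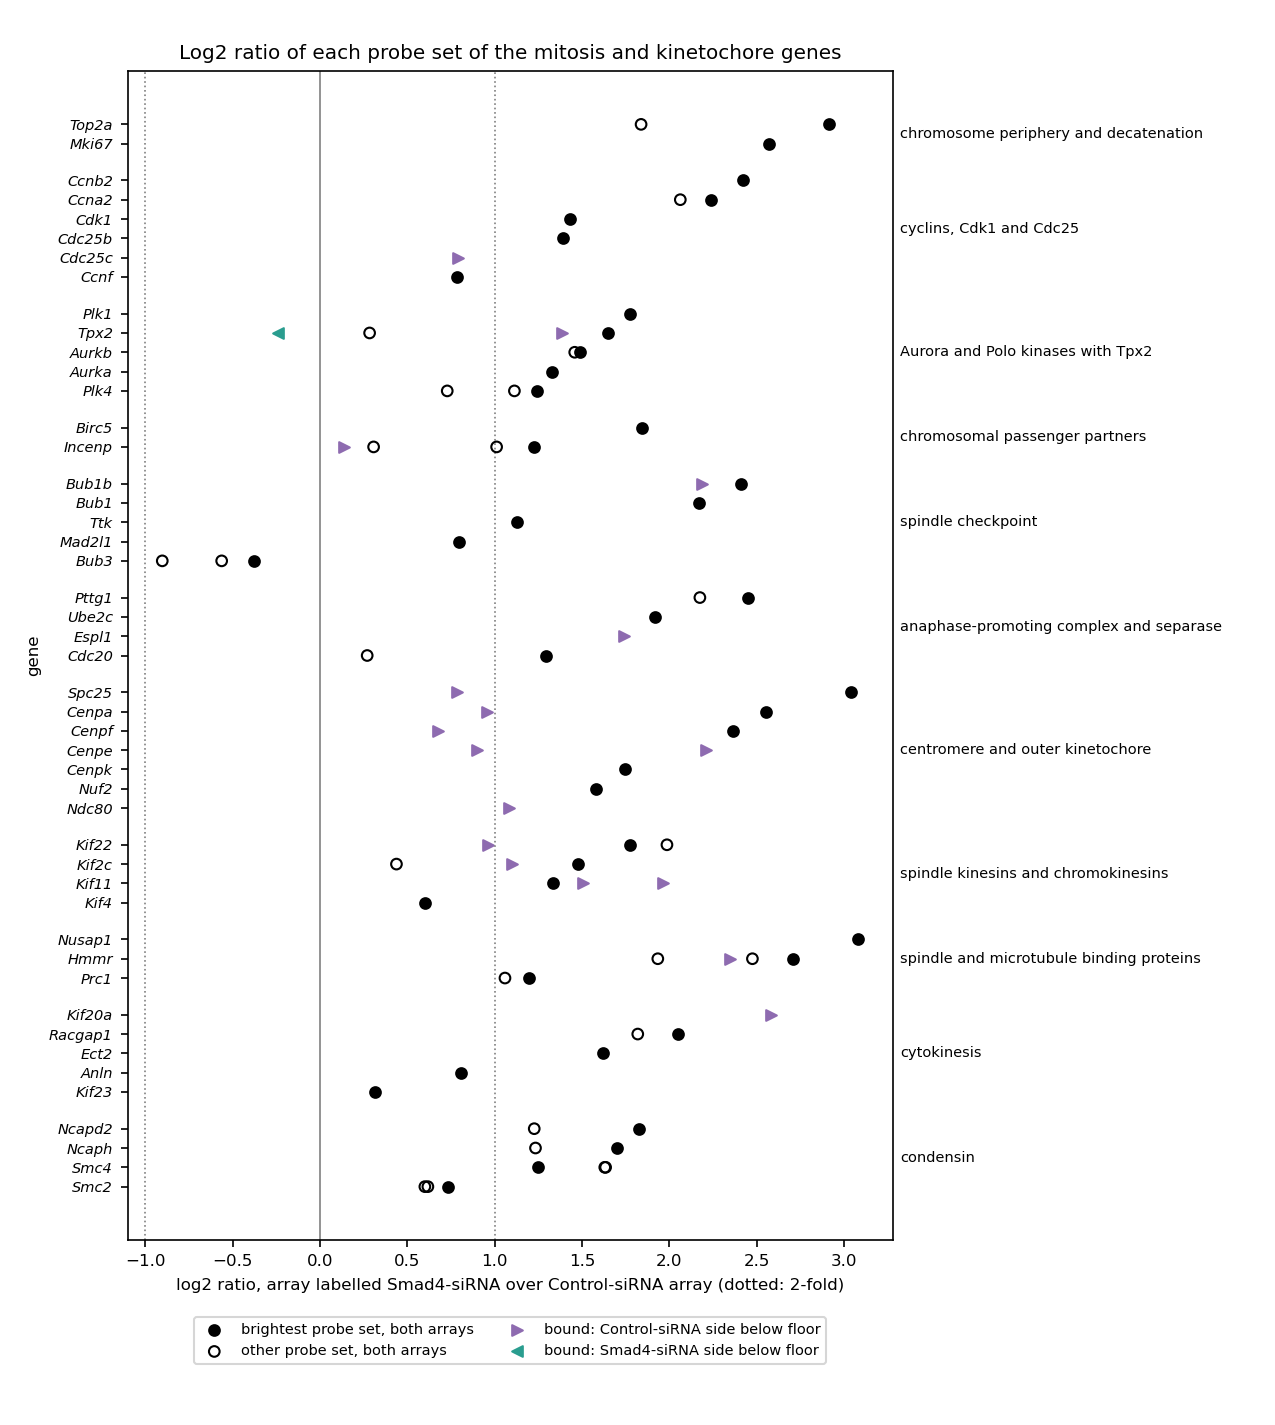
Log2 ratio of each probe set of 47 mitosis and kinetochore genes, Smad4-labelled array over control array, by role. Filled circles are the brightest and open circles other probe sets measured on both arrays, and triangles are bounds against the floor. The probe sets below 0 are the 3 of Bub3 and 1 of Tpx2.

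Probe sets of a gene measured on both arrays had the same direction. Of the 109 probe sets, 66 were measured on both arrays, 17 only on the Smad4-labelled array, 1 only on the control array and 25 on neither. Of the 66, 50 (75.8%) passed 2-fold upwards and none downwards, while 11.3% of all 17205 such probe sets did so upwards and 15.0% downwards. The 3 below 0 all belonged to Bub3. In each of the 18 genes with more than 1 such probe set, all had the same sign. Their pooled SD was 0.42 on the log2 scale, beside 0.47 over 4546 genes of the whole series. With a median log2 ratio of 1.70 for the mitotic genes, a shared sign is likely at such a spread. The 18 measured on 1 array only reached the floor by their high side, so their direction follows from that filter. By brightest probe set, 5 mitotic genes reached it only on the Smad4-labelled and 0 only on the control array. Among all measured genes, 1093 and 1009 did so.

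Among all measured genes 16.0% were at least 2-fold higher and 15.8% lower, with a median log2 ratio of -0.14 (-0.30 as deposited). The counts and medians of the wider cell cycle lists stand beside these values. G1/S and DNA replication genes had 7 of 43 at least 2-fold higher (16.3%, near the share of all genes) and 2 lower (4.65%, under it). Their median log2 ratio was 0.41 (0.22 as deposited, with 3 higher and 3 lower). Tk1, thymidine kinase, was farthest at 3.11-fold, then Lig1 (2.56-fold) and Mcm6 (2.44-fold), while Pcna, the replication clamp, had 2236 on the Smad4-labelled and 2668 on the control array. Cohesin genes had 2 of 14 higher (14.3%) and none lower at 2-fold, with a median of 0.35 (0.01 as deposited). Esco1, a cohesin acetyltransferase, was 2.28-fold and the cohesin subunit Rad21 1.95-fold higher, Stag1 was 1.88-fold lower, and Esco2 was at least 3.70-fold higher. Transcription factors of the mitotic programme had 2 of 21 higher (9.52%) and 1 lower, with a median of 0.03 (-0.11 as deposited). The factor Foxm1, which activates many genes of mitosis, had 134 on the Smad4-labelled and 78.0 on the control array, a log2 ratio of 0.78, and Mybl2 26.2 on the Smad4-labelled and 25.2 on the control array. The pocket protein genes Rb1 and Rbl2, which restrain cell cycle genes, were 2.39-fold and 2.29-fold higher, and Lin9, a MuvB subunit, 2.09-fold lower. The listed Cdk inhibitor and quiescence genes were also higher in part, with 7 of 16 at least 2-fold higher (43.8%) and 1 lower. Among those measured on both arrays, Gas6 (12.8-fold), Txnip (7.62-fold) and Cdkn1b, which encodes the inhibitor p27 (4.33-fold), were farthest from 0. Of those given as bounds, Gas1 was at least 42.4-fold higher and Cdkn2b at least 42.6-fold lower. No test of the differences between these lists was made.

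**Figure D4:**
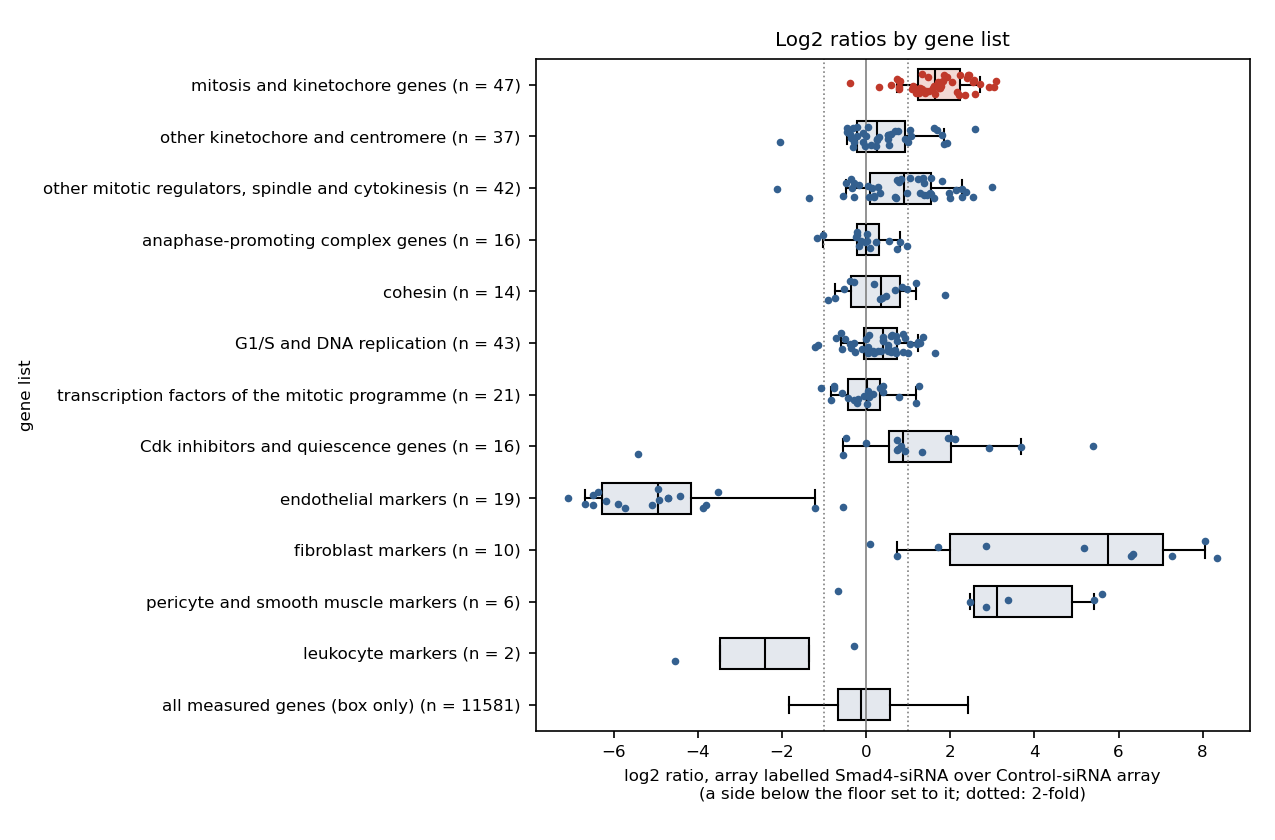
Log2 ratio, Smad4-labelled array over control array, of each measured gene (points) by list, with medians and quartiles as boxes, the 5th to 95th percentile as whiskers, and signals below the floor set to it. The 47 mitosis and kinetochore genes have a median of 1.65, endothelial markers of -4.94, fibroblast markers of 5.74 and all measured genes of -0.11.

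The motifs were also looked at in these lists. Both TTTGAA and CCAAT were in 9 of 39 windows of the other kinetochore and centromere genes (23.1%), in 16 of 43 of the other mitotic regulators (37.2%), in 3 of 42 of the G1/S and replication genes (7.14%) and in none of 18 of the listed anaphase-promoting complex genes. Among the other kinetochore and mitotic genes together, 10 of 23 measured genes with both motifs were at least 2-fold higher (median log2 ratio 0.83), and 12 of 43 without both (0.33). Over all measured genes outside the 48, the shares were 17.2% of 501 with both motifs and 14.9% of 8836 without. No test of these differences was made.

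Neighbouring genes on the chromosome did not show the same shift. The 48 genes are spread over the genome, from Nuf2 on chromosome 1 to Kif4 on the X chromosome. Among the nearest 5 genes on each side, 301 were measured, of which 43 (14.3%) passed 2-fold upwards and 45 (15.0%) downwards. These shares are near the 16.0% and 15.8% of all measured genes. With signals below the floor set to it, the median log2 ratio was -0.033 for neighbours and -0.11 for all measured genes. The mitotic gene lay above the median of its own neighbours in 44 of 47 cases, the exceptions being Bub3, Kif23 and Smc4. Since 46 of the 47 lay above 0, this count largely restates their own values, and a regional effect was not tested. The medians of neighbours ranged from -1.43 to 1.45.

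Scaling and filters changed the counts more than the direction. The median of all measured genes moved with the scaling, at -0.30 for the values as deposited and -0.02 with equal trimmed means, against -0.14 as reported. The median of the mitotic genes was 1.60 and 1.88 in these settings. Because the settings differ only by a constant on the log2 scale, its distance from all genes, 1.90, is the same in both by construction. As reported, that distance was 1.84. The number at least 2-fold higher was 38 and 42, beside 15.2% and 19.6% of all measured genes, against 39 and 16.0% as reported. It was 17 of 35 measured with the floor at the 75th percentile of the signals and 25 of 36 without probe sets whose suffix marks sequence shared between transcripts, where the shares of all measured genes were 12.2% and 16.0%.

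**Figure D5:**
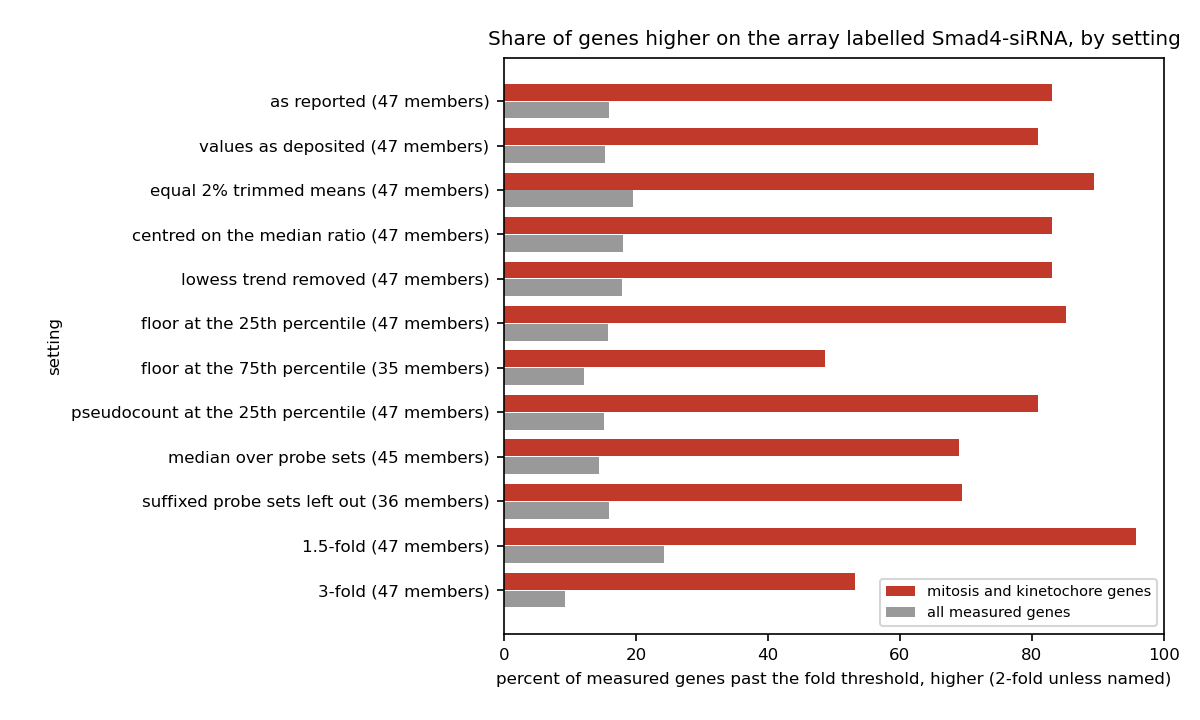
Percent of measured mitosis and kinetochore genes (red) and of all measured genes (grey) that were at least 2-fold higher (1.5-fold or 3-fold where named) on the Smad4-labelled array, by processing setting, with the number of mitotic genes measured in each. The red bar is lowest, at 48.6%, with the floor at the 75th percentile and 95.7% at 1.5-fold, and the grey bars run from 9.25% to 24.3%.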

How the data were processed

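Total RNA labelled as from bEnd3 cells was hybridised to 2 Affymetrix arrays, 1 per group, the groups being taken from the sample titles. The deposited table holds a linear signal intensity for each probe set, computed by the authors with MAS5 according to the labels (per the submitters' processing notes). Which release and scaling target were set is not given in the sources used here. Detection calls were not used. With 2 arrays, precision is limited by their number.

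The 2% trimmed means of the arrays were 115 (labelled Smad4-siRNA) and 138 (Control-siRNA), a difference of -17.2%, so log2 signals of the 45037 probe sets that were not controls were quantile normalized. Gene names came from the platform annotation, updated by Entrez identifier through RefSeq (GRCm38.p6). Each gene took the value of its brightest probe set (mean log2 signal over both arrays), and a side below the floor gives a bound ("at least"). Alternatives were other scalings, floors, a pseudocount, other choices of probe sets and other folds. The genes named were all 48, Smad4, and the 3 genes of each other list measured on both arrays farthest from 0. Named after seeing their values, and not by the rule, were the sex-linked genes, Pecam1, Vwf, Des, Ptprc, Mad1l1, Plk2, Plk3, Esco2, Pcna, Foxm1, Mybl2, Gas1 and Cdkn2b. The members and lists were chosen with earlier results of these data known. Python 3.11.15, numpy 2.4.6, pandas 2.3.3 and statsmodels 0.14.6 were used.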

Additional observations from a re-analysis of the deposited data

How the results depend on the processing

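Across 11 alternatives, 0 mitotic genes were at least 2-fold lower, and all measured ones but Bub3 lay above 0. At 2-fold, 17 of 35 measured genes were higher with the floor at the 75th percentile. Without probe sets whose suffix marks shared sequence it was 25 of 36, and at 3-fold 25 of 47. The shares of all measured genes were 12.2%, 16.0% and 9.25%. Of the probe sets measured on both arrays, 8 of 13, 26 of 35 and 31 of 66 passed, beside 8.20%, 11.5% and 5.42% of all such probe sets. Fewer genes or probe sets reach the higher floor or are left without suffixed ones. The other alternatives at 2-fold gave from 31 of 45 to 42 of 47 genes, beside 14.4% to 19.6% of all measured genes. At 1.5-fold, 45 of 47 were higher, beside 24.3% of all. The median log2 ratio ran from 1.35 to 1.88. Of 42 genes measured on both arrays, 0 changed sign and 29 were at least 2-fold higher in every setting that gave a value. Of 323 values of single genes under an alternative, 8 moved by more than the pooled SD between probe sets. All 8 came from the settings that change the choice of probe sets. Other floors leave the ratio of the brightest probe set as it was, so those values could not move. With the median over probe sets, Cdc20 (0.27), Tpx2 (0.71), Kif2c (0.90), Top2a (1.84) and Spc25 (2.10) moved and 27 genes did not. Without suffixed probe sets, Incenp (0.31), Top2a (1.84) and Bub3 (-0.90) moved and 26 did not. Medians near 0 of the anaphase-promoting complex genes (-0.36 to 0.13) and the transcription factors (-0.11 to 0.17) took both signs. No paired analysis was possible because each group has 1 array. Signals near the floor limit the 5 genes given as bounds.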
